A study of Mus musculus with 4 samples.

Results

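The choroid plexus is known from a small set of genes that its epithelium transcribes at high levels, and 10 of them, Ttr, Enpp2, Sostdc1, F5, Folr1, Kl, Prlr, Aqp1, Slc4a5 and Clic6, were followed through 4 RNA-seq libraries of mouse brain. The genes were listed by symbol and matched to the Entrez identifiers of the count table, where all 10 were present among 12700 genes. RNA came from C57BL/6 mice aged 9 months, either Ids-ko (Ids-/-), a model of Mucopolysaccharidosis type II (Hunter syndrome) lacking the lysosomal enzyme iduronate 2-sulfatase, or wild-type (wt) littermates that carry the gene. Each brain was split into cerebral cortex (Cx) and an area M that joins midbrain, diencephalon and hippocampus, and the RNA of 7 mice was pooled for each genotype and area. The libraries are labelled CxH (cortex, Ids-ko), CxWT (cortex, wt), MH (area M, Ids-ko) and MWT (area M, wt). With 1 library per condition there is no spread between animals to set a difference against, and whether choroid plexus was kept or taken off during dissection is not given in the sources used here.

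Reads on the genes of the table numbered 16380080 in MWT to 23475080 in CxH, which was 56.6% to 61.0% of all aligned reads. Values are given as RPM, the reads of a gene per 1000000 aligned reads, and as log2 ratios between 2 libraries ± the standard error (SE) from counting. A gene was called higher or lower when the likelihood ratio test on its 2 Poisson counts gave a p under 0.05 and the log2 ratio reached 0.7 in size, which is the rule of the study; the test compares 2 libraries, not genotypes or areas. Ids, the targeted gene, stood at 135 RPM in CxH and 354 RPM in CxWT, beside 368 RPM in MH and 155 RPM in MWT. It was thus lower in the library labelled CxH than in CxWT, but higher in the library labelled MH than in that labelled MWT, against the genotype labels of area M. Summed markers of cortical excitatory neurons were at 1961 and 1817 RPM in CxH and MH against 397 and 345 RPM in CxWT and MWT. Summed markers of midbrain and diencephalon ran the other way, at 22.9 and 34.5 RPM in CxH and MH against 450.2 and 394 RPM in CxWT and MWT. Genotype, area and the tissue content of a pool therefore cannot be told apart from these labels, and every direction below is one between labelled libraries. Whether libraries or labels were exchanged was not tested.

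The choroid plexus hangs in the brain ventricles as a folded sheet of epithelium over leaky capillaries, and it secretes most of the cerebrospinal fluid. Its epithelial cells move sodium, bicarbonate, chloride and water from blood to ventricle and release carrier proteins and signals into the fluid. It is not part of the cortical or midbrain parenchyma, so its transcripts in a dissected piece of brain depend on how much of it stays attached. In a bulk library, fewer choroid plexus cells and less RNA per cell cannot be told apart.

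The genes together gave 831 RPM in CxH and 386 RPM in CxWT, beside 995 RPM in MH and 609 RPM in MWT. The highest level was therefore in MH and the lowest in CxWT, with CxH above MWT, and none of the exact Poisson 95% intervals of these sums overlapped (these intervals cover counting error only). Ttr alone supplied 64.6% of the reads in CxH and 58.5% in MH, but 29.1% in CxWT and 36.2% in MWT. Without Ttr the sums were 294 RPM in CxH and 274 RPM in CxWT, beside 413 RPM in MH and 389 RPM in MWT. Leaving out Enpp2 as well left 54.7, 51.0, 69.0 and 70.2 RPM in the same order of libraries. The excess of CxH over CxWT in the sum thus lay almost wholly in Ttr reads, while the smaller genes split into some that followed Ttr and some that did not.

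**Figure D1:**
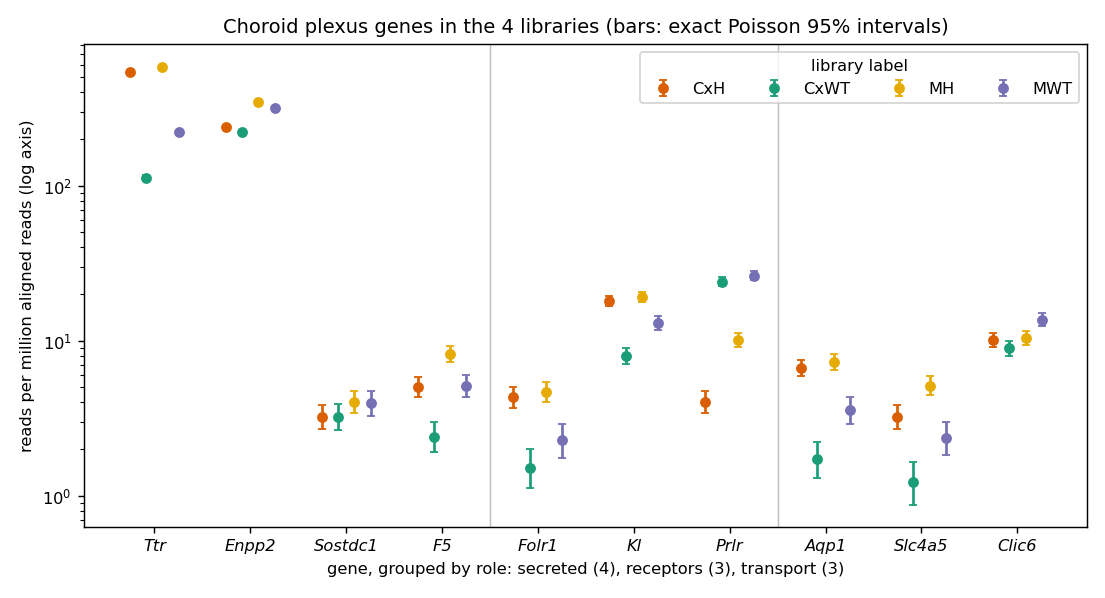
Level of each choroid plexus gene in the 4 libraries, in RPM on a log axis; each point is 1 library, bars are exact Poisson 95% intervals, and grey lines separate secreted proteins, receptors and transport proteins. Every gene except Prlr and Clic6 is highest in MH and lowest in CxWT. Among them Ttr, Folr1, Kl, Aqp1 and Slc4a5 have CxH above MWT, and Enpp2, Sostdc1 and F5 have MWT above CxH. Clic6 is highest in MWT and lowest in CxWT, whereas Prlr is highest in MWT and lowest in CxH.

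In CxH vs CxWT, 6 of the 10 genes were called higher (Ttr, F5, Folr1, Kl, Aqp1 and Slc4a5) and 1, Prlr, was called lower. Over all genes, 9.46% were called higher and 11.5% lower in that comparison. The median log2 ratio of the 10 genes was 1.12, beside -0.093 for all genes. Enpp2, Sostdc1 and Clic6 were not called, with log2 ratios of 0.10 ± 0.022, 0.00 ± 0.19 and 0.19 ± 0.11.

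In MH vs MWT, 4 genes were called higher (Ttr, Folr1, Aqp1 and Slc4a5), and Prlr was again the 1 called lower. The background was 12.3% called higher and 12.7% called lower, and the median was 0.62 for the choroid plexus genes and -0.066 for all genes. F5, at 0.68 ± 0.14, and Kl, at 0.56 ± 0.092, lay under the threshold in size. These 2 comparisons share no library, but by the methods of the study Cx and M of a genotype label came from the same mice, and in both the first library was the one rich in cortical markers. Ids, in contrast, was called lower in the first comparison and higher in the second, while the log2 ratios of the 6 genes were above 0 in both. An edgeR quasi-likelihood fit of H vs WT over the 4 libraries, with the area label as replicate block and 1 residual degree of freedom, called the 6 genes higher and Prlr lower at an adjusted p under 0.05, beside 20.6% of the 11995 genes it tested in either direction. F5 only just passed in it, at an adjusted p of 0.0491, and was not called with no block (0.0719). The fit treats pools of the same mice as replicates, so that its p-values do not cover the variation between animals, and it takes the genotype labels of area M as given.

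The areas were then compared within each genotype label. In CxH vs MH none of the genes was called higher, beside 2.43% of all genes, and F5 and Prlr were called lower, beside 1.06%; the F5 call was lost after a correction for GC content and length (-0.55), with an assumed coefficient of variation of 0.2 and with a log2 threshold of 1. In CxWT vs MWT none was called higher, beside 5.43%, and 5 were called lower (Ttr, F5, Kl, Aqp1 and Slc4a5), beside 2.11%; the 5 became 3 after the same correction and 2 with the threshold of 1, and Ttr was lost under both. All 10 log2 ratios were below 0 in both, with medians of -0.22 and -0.66 where all genes had 0.015 and 0.045. Of all 12700 genes, 6114 and 5679 had a log2 ratio below 0. The libraries of the M label thus had a higher RPM of every gene than the cortical library of the same genotype label, although 8 and 5 of these differences were not called and those of Sostdc1 and Prlr in CxWT vs MWT turned sign after the same correction. The same kind of fit was made for Cx vs M with the genotype label as replicate block. This block holds only if the libraries of a label are from the same mice, and the Ids levels differed between them within both labels. It gave the 10 genes a median log2 ratio of -0.53, and at an adjusted p under 0.05 it called 0 of them and 0% of the 11995 genes it tested. At an unadjusted p under 0.05 it had 5 of them (Ttr, Enpp2, F5, Prlr and Slc4a5), beside 5.33% of those genes.

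The remaining pairs differ in both labels and share their libraries with the comparisons above. In CxH vs MWT, where Ids was low in both libraries, Ttr, Folr1 and Aqp1 were called higher and Prlr lower, beside 15.6% and 15.1% of all genes. Of these, Aqp1 was not called after the GC and length correction (0.61), Folr1 not with a coefficient of variation of 0.2, and neither with a log2 threshold of 1. In MH vs CxWT, where Ids was high in both, the same 6 genes as in CxH vs CxWT were called higher and Prlr lower, beside 6.41% and 8.89%. The medians of the 10 genes were 0.22 and 1.44, against -0.040 and -0.11 for all genes.

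**Figure D2:**
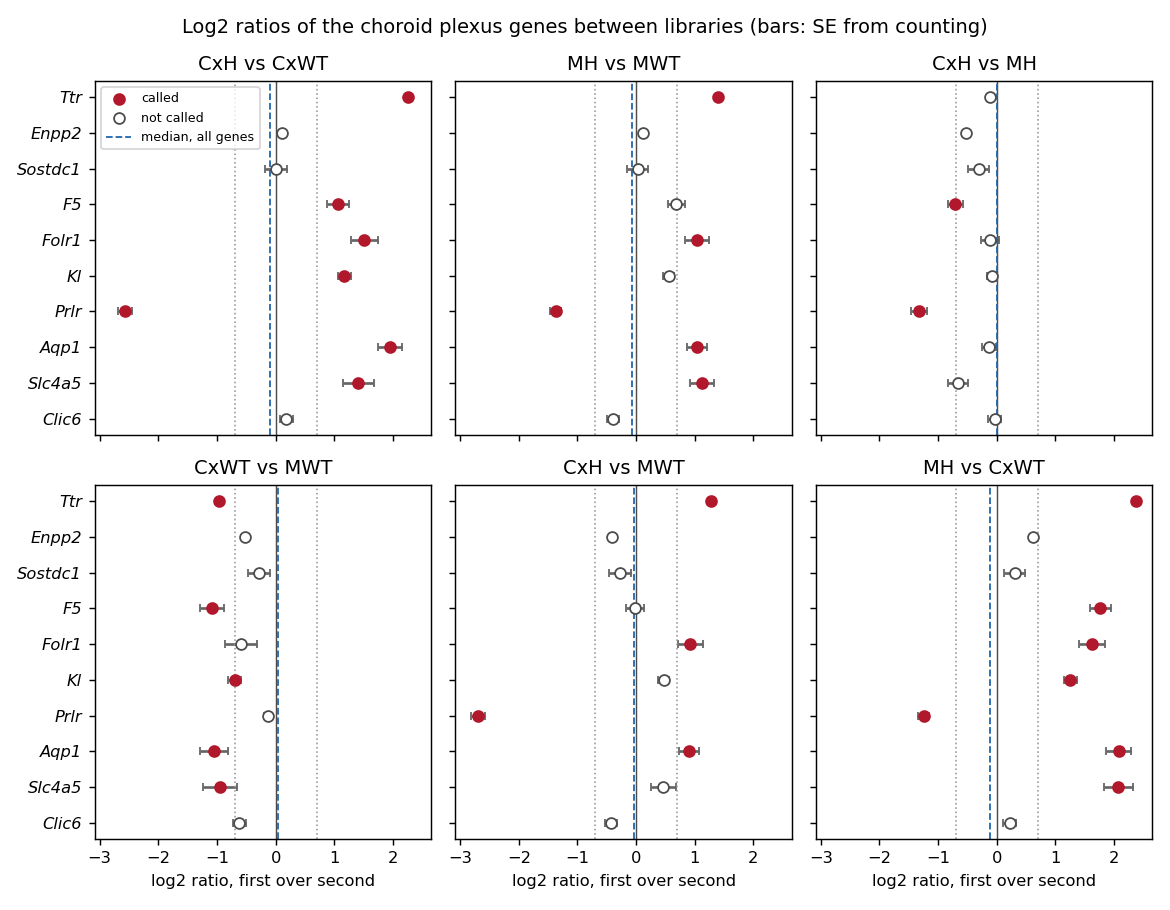
Log2 ratio of each choroid plexus gene in the 6 pairs of libraries, first over second, with bars for the SE from counting; filled points were called, dotted lines mark the threshold of 0.7 and the dashed line is the median of all 12700 genes. In CxH vs CxWT and MH vs CxWT 6 points lie beyond the threshold to the right and Prlr beyond it to the left, while CxWT vs MWT has every point below 0.

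Promoters were available for 5 of the 10 genes, and those of the 4 that were called higher in CxH vs CxWT are shown. The sequences are those of RefSeq (GRCm38.p6), from 250 bases before to 50 bases after the start of transcription, and each matched NCBI37/mm9, the build of the alignment, exactly once, on the plus strand of the chromosome given. F5 lies at chr1:166081716-166082015, Kl at chr5:151754932-151755231, Aqp1 at chr6:55286043-55286342 and Slc4a5 at chr6:83187119-83187418, inside the span that GENCODE gives to the gene. Capitals mark each match, on either strand, to the GC box GGGCGG or the TATA box TATAAA.
F5: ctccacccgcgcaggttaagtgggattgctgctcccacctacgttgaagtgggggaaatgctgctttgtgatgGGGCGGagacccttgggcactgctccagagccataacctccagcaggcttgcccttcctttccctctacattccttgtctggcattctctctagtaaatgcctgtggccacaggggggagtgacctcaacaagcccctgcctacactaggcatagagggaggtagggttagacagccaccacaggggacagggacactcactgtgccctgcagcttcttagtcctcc
Kl: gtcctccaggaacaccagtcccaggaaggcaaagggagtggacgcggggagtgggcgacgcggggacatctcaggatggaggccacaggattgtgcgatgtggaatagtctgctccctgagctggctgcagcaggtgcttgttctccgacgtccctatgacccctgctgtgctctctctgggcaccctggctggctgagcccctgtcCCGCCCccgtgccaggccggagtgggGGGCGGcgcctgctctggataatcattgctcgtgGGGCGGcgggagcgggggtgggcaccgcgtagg
Aqp1: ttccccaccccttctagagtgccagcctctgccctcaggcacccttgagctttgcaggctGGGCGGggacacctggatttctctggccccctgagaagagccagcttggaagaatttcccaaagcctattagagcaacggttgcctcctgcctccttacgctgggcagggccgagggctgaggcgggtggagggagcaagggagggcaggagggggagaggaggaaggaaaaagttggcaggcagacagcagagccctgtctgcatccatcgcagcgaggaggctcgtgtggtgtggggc
Slc4a5: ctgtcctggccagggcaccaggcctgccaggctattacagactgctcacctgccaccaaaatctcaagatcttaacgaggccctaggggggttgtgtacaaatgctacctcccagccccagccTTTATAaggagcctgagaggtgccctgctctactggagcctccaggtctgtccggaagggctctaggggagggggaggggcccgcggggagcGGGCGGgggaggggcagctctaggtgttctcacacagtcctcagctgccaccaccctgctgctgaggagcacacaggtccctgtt

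Each of these 4 promoters held a GC box, at -177 in F5, -190 in Aqp1 and -35 in Slc4a5, counted from the start to the first base of the match, and Kl held 3, at -43, -17 and 17. Of 32851 mouse promoters of the same length, 35.7% held one. The 3 promoters of Prlr, which was called lower where these genes were called higher, held none. TATAAA was found on the minus strand in Slc4a5 at -127, and 13.6% of all promoters had it. Neither TAATCC, the core bound by Otx-type homeobox factors (7.06% of all promoters), nor the E-box CACGTG (7.15%) occurred in any of the promoters of these 5 genes, and the forkhead motif GTAAACA (3.65%) occurred once, in the second promoter of Prlr. The GC content was 57.7% in F5, 67.3% in Kl and 62.7% in Aqp1 and Slc4a5, and 35.3% to 49.3% in the Prlr promoters, with a median of 52.7% over all promoters. These matches describe letters and say nothing of binding. The promoters shown were chosen by their calls, and Ttr, Enpp2, Sostdc1, Folr1 and Clic6 had none available. Whether GC boxes or GC content go with the direction of a gene was therefore not tested.

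Among the secreted proteins, Ttr (Entrez 22139; mm9 chromosome 18, 20823751 to 20832825, plus strand) encodes transthyretin, the carrier of thyroid hormone and retinol that the epithelium releases into cerebrospinal fluid. It had 20682 reads in CxH and 3784 in CxWT, beside 21768 in MH and 6390 in MWT, or 537, 113, 583 and 221 RPM. Both libraries rich in cortical markers were thus far above the other two, and no intervals overlapped. The log2 ratio was 2.25 ± 0.026 in CxH vs CxWT and 1.40 ± 0.021 in MH vs MWT, above those of 99.3% and 96.6% of all genes. In CxWT vs MWT it was called at -0.97 ± 0.030, but not after the GC and length correction (-0.60) or with a threshold of 1, and it was -0.12 ± 0.014, without a call, in CxH vs MH. Of its 1219 exonic bases, 11 are shared with Gm16090 on the opposite strand.

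Enpp2 (Entrez 18606; chromosome 15, 54670453 to 54751701, minus strand) encodes autotaxin, the secreted enzyme that makes lysophosphatidic acid, and is also transcribed by oligodendrocytes. Its reads numbered 9211 in CxH and 7486 in CxWT, beside 12848 in MH and 9219 in MWT, or 239, 223, 344 and 318 RPM. The M libraries were the higher pair and the 4 intervals were apart, but the whole range was 1.54-fold. The log2 ratios of -0.52 ± 0.020 for CxH vs MH, and of -0.52 ± 0.022 for CxWT vs MWT, were not called. That of 0.63 ± 0.021 in MH vs CxWT was called with TMM (0.73) or DESeq2 (0.74) factors. Oligodendrocyte markers summed to 5086 RPM in CxH and 9644 in CxWT, beside 5299 in MH and 7805 in MWT, an order different from that of Enpp2; their part in its level was not tested.

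Sostdc1 (Entrez 66042; chromosome 12, 37040756 to 37045039, plus strand) encodes a secreted modulator of BMP and Wnt signals. It was level across the libraries, with 125 reads in CxH and 109 in CxWT, beside 150 in MH and 114 in MWT, or 3.25, 3.24, 4.01 and 3.94 RPM. All neighbouring intervals overlapped, and the log2 ratios in CxH vs CxWT (0.00 ± 0.19) and MH vs MWT (0.03 ± 0.18) turned to -0.014 and -0.033 when the column totals replaced the aligned reads.

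F5 (Entrez 14067; chromosome 1, 166081969 to 166150408, plus strand) encodes coagulation factor V. It had 194 reads in CxH and 81 in CxWT, beside 307 in MH and 148 in MWT, or 5.04, 2.41, 8.22 and 5.11 RPM. MH was the highest and CxWT the lowest, with overlapping intervals for MWT and CxH. The log2 ratio was 1.06 ± 0.19 in CxH vs CxWT, -1.09 ± 0.20 in CxWT vs MWT and -0.71 ± 0.13 in CxH vs MH, all called, though the last only just passed the threshold and was lost under the settings given above. In MH vs MWT it was 0.68 ± 0.14, which passes 0.7 with TMM or DESeq2 factors, both at 0.74, and after the GC and length correction (0.71). Its exons share 262 of 7430 bases with the lincRNA Gm16548 on the opposite strand, and whether the reads were counted by strand is not given in the sources used here.

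Of the receptors, Folr1 (Entrez 14275; chromosome 7, 109006845 to 109019302, minus strand) encodes folate receptor alpha, which carries folate across the epithelium. It had 167 reads in CxH and 51 in CxWT, beside 175 in MH and 66 in MWT, or 4.34, 1.52, 4.68 and 2.28 RPM. CxH and MH lay close together above CxWT and MWT, and the intervals overlapped only within each of these pairs. The log2 ratio was 1.52 ± 0.23 in CxH vs CxWT and 1.04 ± 0.21 in MH vs MWT.

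Kl (Entrez 16591; chromosome 5, 151755182 to 151796384, plus strand) encodes klotho, the co-receptor of the hormone FGF23. Its reads were 693 in CxH and 268 in CxWT, beside 713 in MH and 375 in MWT, or 18.0, 7.97, 19.1 and 13.0 RPM. CxH and MH had overlapping intervals, and MWT stood between them and CxWT. The log2 ratio of 1.17 ± 0.10 in CxH vs CxWT and that of -0.70 ± 0.12 in CxWT vs MWT were called. The second lay on the threshold, and its call was lost when 0.5 was added to every count, after the GC and length correction (-0.69), with a coefficient of variation of 0.2 and with a log2 threshold of 1.

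Prlr (Entrez 19116; chromosome 15, 10106993 to 10303504, plus strand) encodes the prolactin receptor, which is abundant in choroid plexus and also made by neurons of the hypothalamus. It had 156 reads in CxH and 808 in CxWT, beside 379 in MH and 761 in MWT, or 4.05, 24.0, 10.1 and 26.3 RPM. CxWT and MWT, whose intervals overlapped, were above MH, and CxH was lowest, so that within each area label the order was the reverse of that of Ttr. The log2 ratio was -2.57 ± 0.13 in CxH vs CxWT, -1.37 ± 0.091 in MH vs MWT and -1.32 ± 0.14 in CxH vs MH, all called. The 9 markers of hypothalamic neurons had 568 and 477 reads in CxH and MH against 4370 and 2610 in CxWT and MWT, with Ghrh at 0 reads in CxH. None of the 9 was called higher and 8 were called lower in CxH vs CxWT, and all 9 were called lower in MH vs MWT, beside 11.5% and 12.7% of all genes called lower; their part in the Prlr reads was not tested. Prlr shares 155 exonic bases with Agxt2, which lies on the same strand.

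The transport genes also split. Aqp1 (Entrez 11826; chromosome 6, 55286426 to 55298549, plus strand) encodes the water channel of the membrane facing the ventricle. It had 257 reads in CxH and 58 in CxWT, beside 273 in MH and 103 in MWT, or 6.67, 1.73, 7.31 and 3.56 RPM. CxH and MH overlapped, MWT was lower and CxWT lowest. The log2 ratio was 1.95 ± 0.21 in CxH vs CxWT, 1.04 ± 0.17 in MH vs MWT and -1.04 ± 0.24 in CxWT vs MWT. Of the other choroid plexus genes its profile was the nearest to that of Ttr.

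Slc4a5 (Entrez 232156; chromosome 6, 83169822 to 83254939, plus strand) encodes a sodium bicarbonate cotransporter. It had 125 reads in CxH and 41 in CxWT, beside 192 in MH and 68 in MWT, or 3.25, 1.22, 5.14 and 2.35 RPM. The libraries took the same order as for Ttr, with overlapping intervals for CxH and MWT. The log2 ratio was 1.41 ± 0.26 in CxH vs CxWT, 1.13 ± 0.20 in MH vs MWT and -0.95 ± 0.29 in CxWT vs MWT. That in CxH vs MH, -0.66 ± 0.17, was not called, but became a call with column totals (-0.71). The call in CxWT vs MWT was lost with a coefficient of variation of 0.2 and with a log2 threshold of 1.

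Clic6 (Entrez 209195; chromosome 16, 92485981 to 92541488, plus strand) encodes a protein of the chloride intracellular channel family. It had 391 reads in CxH and 300 in CxWT, beside 389 in MH and 396 in MWT, or 10.2, 8.92, 10.4 and 13.7 RPM. MWT was highest, and the other 3 lay close, so that the range was 1.53-fold. It was called in none of the 6 pairs, and its log2 ratio in CxWT vs MWT was -0.62 ± 0.11, which column totals made a call at -0.71.

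The log2 ratios of the Cx pair and of the M pair of libraries were also set against each other. For Ttr the first exceeded the second by 0.85 ± 0.033, for Aqp1 by 0.91 ± 0.27 and for Kl by 0.62 ± 0.14, with the SE from counting. For Folr1, F5 and Slc4a5 the gap was 0.48 ± 0.31, 0.38 ± 0.24 and 0.28 ± 0.33, under 2 SE. Clic6, which was called in neither pair, had a gap of 0.58 ± 0.15. Prlr had the gap in the other direction, -1.19 ± 0.16. Without replicate libraries, these gaps could not be tested against the variation between pools.

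Per length of transcript, which allows levels of different genes to be compared, Ttr averaged 298 RPKM (RPM per kilobase) over the 4 libraries and Enpp2 82.7. The other 8 genes lay between 0.583 RPKM for Slc4a5 and 2.87 for Clic6. Ttr was therefore the dominant transcript, and the remaining genes apart from Enpp2 were read at low depth. The fewest reads behind any value were 41, for Slc4a5 in CxWT.

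Reads per 1000 Ttr reads of the same library do not depend on how a library is scaled. Aqp1 kept closest to Ttr, with 12.4 ± 0.78 in CxH and 15.3 ± 2.0 in CxWT, beside 12.5 ± 0.76 in MH and 16.1 ± 1.6 in MWT. Folr1 had 8.07 ± 0.63, 13.5 ± 1.9, 8.04 ± 0.61 and 10.3 ± 1.3 in the same order. The range over the libraries was thus 1.30-fold for Aqp1 and 1.68-fold for Folr1. It was 1.79-fold for Slc4a5, 2.16-fold for Kl and 2.47-fold for F5. Kl, for example, had 33.5 ± 1.3 and 32.8 ± 1.2 in CxH and MH but 70.8 ± 4.5 and 58.7 ± 3.1 in CxWT and MWT. Sostdc1, Clic6 and Enpp2 ranged 4.77-, 4.44- and 4.44-fold, and Prlr 28.3-fold, from 7.54 ± 0.61 in CxH to 214 ± 8.3 in CxWT. Every one of the 9 genes had more reads per Ttr read in CxWT and in MWT than in CxH and in MH, though for Aqp1, Folr1 and Slc4a5 some of these gaps were under 2 SE. This restates that Ttr had the largest log2 ratio of the set in each of these pairs, and is not a separate result.

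**Figure D3:**
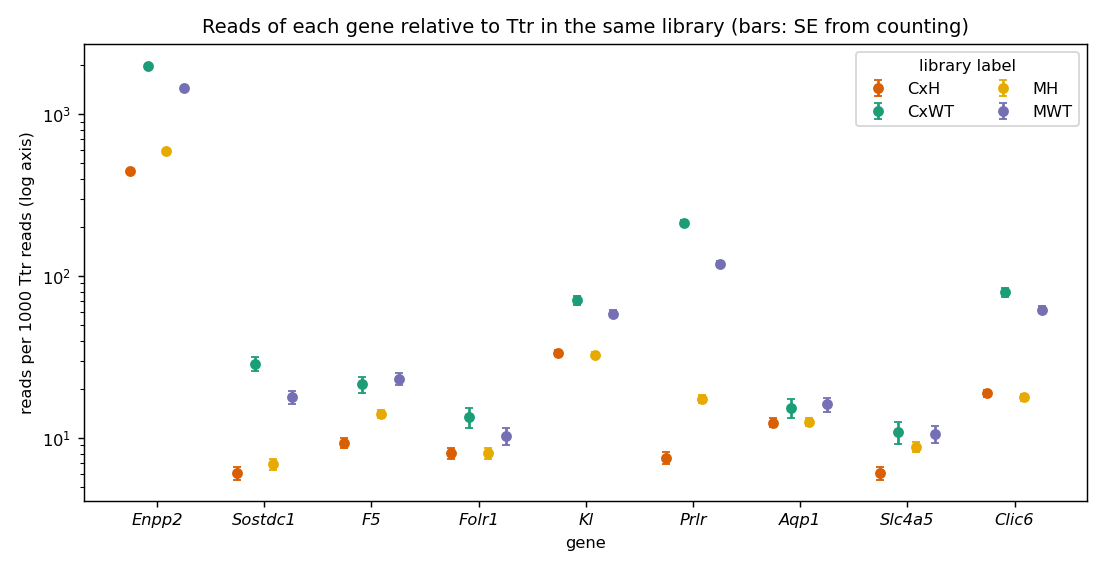
Reads of each gene per 1000 Ttr reads in the same library, on a log axis; each point is 1 library and bars are the SE from counting. Aqp1 stays between 12.4 and 16.1, while Prlr runs from 7.54 in CxH to 214 in CxWT.

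A second list of 33 genes known from choroid plexus, of which 26 were in the table, was read in the same way. In CxH vs CxWT 6 of the 26 were called higher (Car12, Trpv4, Wfdc2, Cldn2, Tmem72 and Steap1) and 2 lower (Otx2 and Slc12a2). In MH vs MWT 5 were called higher (Car12, Trpv4, Tmem72, Igfbp2 and Cldn2) and 3 lower (Otx2, Cp and Slc12a2). The 26 genes summed to 532 RPM in CxH and 518 in CxWT, beside 534 in MH and 549 in MWT, so that the sum was nearly flat and was lower in MH than in MWT. The medians, 0.33 and 0.084, were below those of the first 10 genes, and the background shares are those given above. Car12, a carbonic anhydrase, had 18.2 RPM in CxH and 5.62 in CxWT, beside 19.9 in MH and 7.25 in MWT. Cldn2, the claudin of the leaky epithelial junctions, had 3.27, 1.28, 4.87 and 2.52 RPM, and Tmem72 had 1.92, 0.773, 2.57 and 1.21 RPM. These 3 took the same order of libraries as Ttr, with log2 ratios of 1.70 ± 0.12, 1.36 ± 0.25 and 1.31 ± 0.33 in CxH vs CxWT. Trpv4, a calcium-permeable channel, was at 5.27, 1.70, 4.04 and 1.66 RPM, with CxH above MH.

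Otx2, the homeobox factor of choroid plexus epithelium, ran against that order, at 2.52 RPM in CxH and 9.85 in CxWT, beside 3.05 in MH and 9.05 in MWT. Its log2 ratio was -1.97 ± 0.17 in CxH vs CxWT and -1.57 ± 0.16 in MH vs MWT. Otx2 is also made by neurons of the thalamus and midbrain, whose markers had the same direction, and their part in its level was not tested. Kcne2, a potassium channel subunit, was at 2.91, 1.99, 5.67 and 4.66 RPM; it was called lower in CxH vs MH, at -0.96 ± 0.17, as well as in CxWT vs MWT, at -1.23 ± 0.22. In CxH vs MH, Wfikkn2 was the 1 gene of the list called higher, at 0.80 ± 0.21, and Kcne2 the 1 called lower, beside 2.43% and 1.06% of all genes. In CxWT vs MWT none was called higher and 5 were called lower (Kcne2, Calml4, Cldn2, Steap1 and Cldn1), beside 5.43% and 2.11%. Ace, Slc13a4, Col8a1, Col8a2, Sulf1, Cab39l, Rdh5, Igf2, Slc4a10, Slc5a5 and Tcn2 were called in none of these 4 comparisons, and Mfrp had 0 reads in every library. Several of these genes are made elsewhere in brain or meninges, so that the list is less specific than its name; Slc4a10, for example, was its most abundant gene at 132 to 167 RPM.

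Markers of other cells near the ventricle did not take the order of Ttr. The 12 ependymal genes, which belong to the ciliated lining of the ventricles, summed to 27.2 RPM in CxH and 44.5 in CxWT, beside 25.3 in MH and 51.9 in MWT. In MH vs MWT 10 of them were called lower and 1, Spag6, higher, and in CxH vs CxWT 5 were called lower (Foxj1, Ccdc153, Ak7, Fam183b and Cd24a) and Spag6 higher. Over all genes 12.7% were called lower and 12.3% higher in the first of these, and 11.5% and 9.46% in the second. Foxj1, the regulator of motile cilia, was at 8.03, 13.2, 6.91 and 11.7 RPM. Called or not, 11 of the 12 had a log2 ratio below 0 in MH vs MWT and 10 in CxH vs CxWT, where that of Ttr was above 0. Of all 12700 genes, 6927 and 7304 were below 0 in these comparisons. The 10 genes of meningeal fibroblasts summed to 129.9, 100.1, 116 and 101 RPM, and the 11 endothelial genes to 392, 339.9, 342 and 363 RPM, in the order CxH, CxWT, MH, MWT. In CxH vs CxWT 4 meningeal genes were called higher (Islr, Slc6a13, Aldh1a2 and Pcolce) and Lum lower, and in MH vs MWT Fmod and Slc22a6 were called higher, beside 9.46% higher and 11.5% lower of all genes in the first comparison and 12.3% higher in the second. The meningeal sum was thus also larger in CxH and MH, but both lists ranged far less than Ttr. Each gene of the ependymal, meningeal and endothelial lists that was in the table had reads in every library. Meig1, Hydin, Dnah5 and Dnaic1 of the ependymal list were not in the table, so a 0 could not be seen for them. The same held for Col1a1 and Col3a1 of the meningeal list. The part of ependymal, meningeal and endothelial cells in the values above was not tested.

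**Figure D4:**
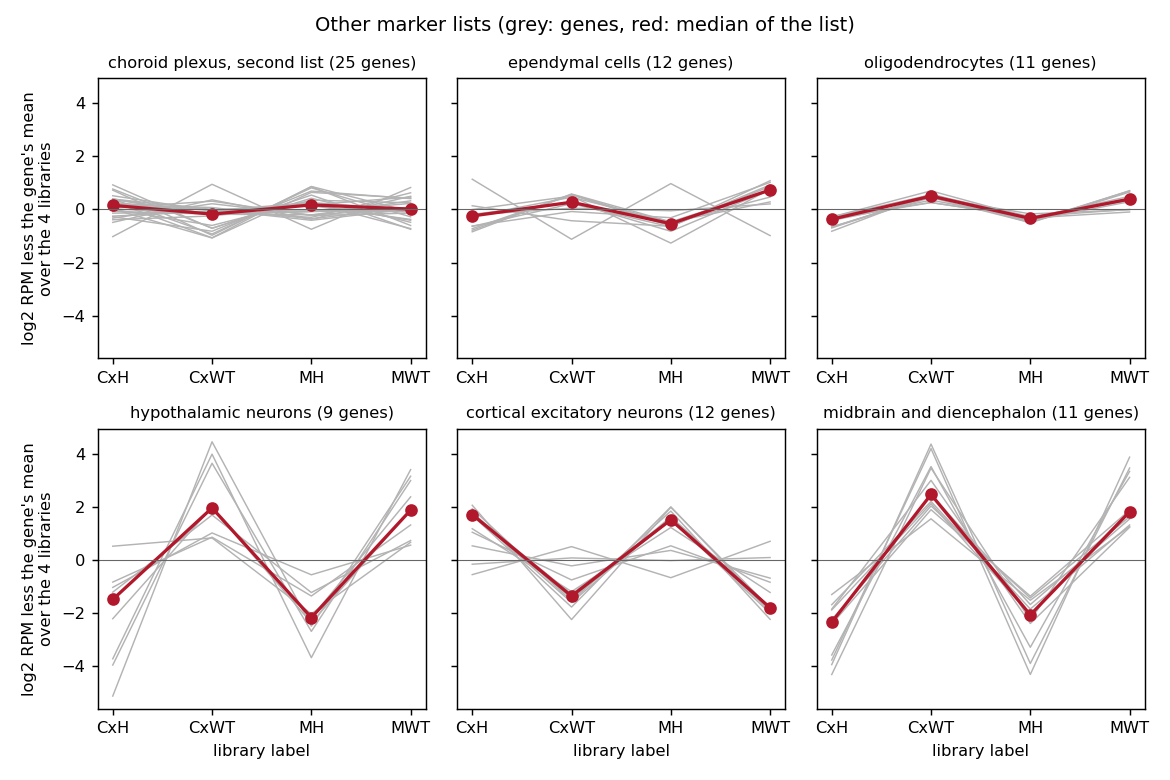
Log2 RPM of the genes of 6 marker lists less each gene's mean over the 4 libraries, with 1 grey line per gene and the median of the list in red; a count of 0 was set to 1 read, and Mfrp, with 0 reads in every library, was left out. The lists for hypothalamic neurons and for midbrain and diencephalon are high in CxWT and MWT, the cortical list is high in CxH and MH, and the second choroid plexus list has a median near 0 throughout with genes on both sides.

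Base composition moved with the same comparisons. Over 9811 genes the log2 ratio and the GC content of the transcript had a Spearman correlation of 0.458 in CxH vs CxWT, 0.482 in MH vs MWT, 0.584 in CxH vs MH and, among the rest, 0.629 in CxWT vs MWT, 0.161 in MH vs CxWT and, highest of the 6, 0.682 in CxH vs MWT; these are correlations across genes, which are not independent replicates. The GC content of the 10 genes ran from 39.4% in Prlr to 54.9% in Aqp1, with Ttr at 46.3%. After correction for GC content and length, the 10 genes still had 6 calls higher and 1 lower in CxH vs CxWT, with a median of 1.184. The correction left 3 of the 5 lower calls in CxWT vs MWT, 1 of the 2 in CxH vs MH, where F5 was lost, and 2 of the 3 higher calls in CxH vs MWT, where Aqp1 was lost. In MH vs MWT it added F5 (0.71), so that 5 genes in place of 4 were called higher.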

How the data were processed

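Total RNA of 7 mice per genotype and area was pooled, made into 1 mRNA library per pool and sequenced on a SOLiD 3 Plus. The authors aligned the reads to NCBI37/mm9 with PASS 2.10, allowing 2 mismatches and no gap, and deposited raw counts per gene; the study took up genes with more than 50% of their length covered, but the table holds 27 to 35 genes at 0 reads in each library, and the gene annotation behind the counts is not given in the sources used here. The log2 ratios and p-values of the authors' own comparisons were not used.

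Each library was scaled to its aligned reads, and libraries were compared by a likelihood ratio test on Poisson counts over all 12700 genes, the test of DEGseq. A count of 0 was set to 1 for ratios. Intervals are exact Poisson at 95%. The scripts used Python 3.11.15, scipy 1.17.1 and R 4.3.3, with factors from edgeR 4.0.16 (TMM) and DESeq2 1.42.0 as alternatives and the edgeR quasi-likelihood test for the fits of Cx vs M and of H vs WT, and were tested on simulated data. Further alternatives were a filter on low counts, a log2 threshold of 1, an assumed coefficient of variation of 0.1 or 0.2, adjusted p-values, a correction for GC content and length, and 0.5 added to every count. Symbols were found for 12690 Entrez identifiers, and mm9 positions, lengths and GC come from GENCODE vM1. The text names all 10 choroid plexus genes, Ids, the second list, at most 3 genes of each other list with the most reads, the 5 nearest to Ttr and every gene of a count of 5 or fewer, such as the meningeal and ependymal genes called. The genes and lists were chosen with earlier results of these data known; the genes flagged, Spag6, Ghrh, Agxt2, Gm16090 and Gm16548 were named after their values were seen.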

Additional observations from a re-analysis of the deposited data

Results flagged for a closer look

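The choroid plexus set, Ids and the marker lists were searched for genes called in opposite directions when the same contrast was made in both areas or in both genotype labels. Those found lay outside the choroid plexus set and are given below. Other genes were not searched, and the paper reports many more with opposite changes. Each ratio was called by the likelihood ratio test between its 2 libraries. With 1 library per condition, the change of sign itself was not tested. Ids had -1.39 in CxH vs CxWT and 1.24 in MH vs MWT, and -1.44 in CxH vs MH against 1.19 in CxWT vs MWT. Hba-a1, an alpha globin of red blood cells whose reads can be shared with a near-identical copy, had -1.06 in CxH vs CxWT and 1.33 in MH vs MWT. The ependymal gene Enkur had 0.77 in CxH vs MH against -1.35 in CxWT vs MWT, from 25 to 57 reads a library. The hypothalamic hormone gene Oxt had -2.63 ± 1.56 in CxH vs MH against 1.29 ± 0.11 in CxWT vs MWT, with 1 read in CxH and 658 in CxWT, beside 6 in MH and 231 in MWT, so the first value rests on almost no reads. None of the 10 choroid plexus genes changed sign between calls in this way.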

How the results depend on the processing

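The paired fit of Cx vs M, with the genotype label as replicate block and chosen after seeing the data, called 0 of the 10 choroid plexus genes, and the fit with no block also called 0 (5 and 0 at an unadjusted p under 0.05; 639 and 7 of all genes). The fit of H vs WT with the area label as replicate block, also chosen after seeing the data, called 7 of the 10 genes and 2470 of all genes, and with no block 6, without F5, and 2613; both treat pools of the same mice as replicates. Every count of calls among the 10 genes in CxH vs CxWT, MH vs MWT and MH vs CxWT stayed within 1.5 times under all alternatives. The count called lower in CxH vs MH fell to 1 with a log2 threshold of 1, a coefficient of variation of 0.2 or the GC and length correction. That in CxWT vs MWT fell to 2, 3 and 3 under the same settings, and the count called higher in CxH vs MWT to 1 with a threshold of 1. Column totals gave sums of 1363, 641, 1686 and 1077 RPM for CxH, CxWT, MH and MWT. Sums without Ttr were 294, 273.7, 413 and 389 RPM, and without Ttr and Enpp2, chosen after seeing the data, 54.7, 51.0, 69.0 and 70.2 RPM. Signs turned for Sostdc1 with column totals (-0.014 in CxH vs CxWT and -0.033 in MH vs MWT) and for F5 in CxH vs MWT with TMM (0.023) or DESeq2 (0.017) factors. The GC and length correction turned Sostdc1 (0.022) and Prlr (0.0060) in CxWT vs MWT, and Enpp2 (0.012), Sostdc1 (0.21) and F5 (0.17) in CxH vs MWT. None of the values that turned was called, and apart from the settings' own construction the cause was not tested.

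Scaling moved the median of all genes by up to 0.11 on the log2 scale, from -0.11 to -0.0024 in MH vs CxWT with DESeq2 size factors. It also moved the split of calls over all genes. In CxH vs CxWT 1201 higher and 1457 lower became 1447 and 1135 with TMM, and in MH vs CxWT 814 and 1129 became 1013 and 855. Column totals gave 257 and 183 in place of 309 and 135 in CxH vs MH, 480 and 390 in place of 690 and 268 in CxWT vs MWT, and 1609 and 2504 in place of 1980 and 1915 in CxH vs MWT. The GC and length correction, with fewer genes tested, gave 983 and 877 in that last pair, 1019 and 1055 in place of 1556 and 1614 in MH vs MWT, 220 and 142 in CxWT vs MWT, and 162 and 116 in CxH vs MH. It can add calls as well as remove them. A log2 threshold of 1 left 691 and 710 in CxH vs CxWT, 869 and 773 in MH vs MWT, 194 and 101 in CxWT vs MWT, 109 and 34 in CxH vs MH, 1107 and 854 in CxH vs MWT, and 497 and 567 in MH vs CxWT. A coefficient of variation of 0.2 left 151 and 40, 359 and 128, and 1477 and 1274 in CxH vs MH, CxWT vs MWT and CxH vs MWT. Depth limits Slc4a5, Folr1 and Aqp1 most, with 41, 51 and 58 reads in CxWT.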

Other observations

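Among the 11995 genes that reached 100 reads in some library, the 5 outside the set whose centred log2 RPM profile over the 4 libraries lay nearest to that of Ttr were Ccn4 (Euclidean distance 0.363), Atp6ap1l (0.442), Spink8 (0.464), Krt9 (0.476) and Ptgs2 (0.481). Ccn4, Atp6ap1l, Spink8 and Krt9 passed this filter only through CxH or MH, where Ttr was also high. They had 13 to 84 reads in CxWT and MWT. Folr1 and Slc4a5 also passed it only there, and no rank was tested. Ptgs2, the inducible cyclooxygenase, which excitatory forebrain neurons also make, was at 11.6 RPM in CxH and 2.47 in CxWT, beside 14.4 in MH and 7.22 in MWT. Spink8, which was on the list for hippocampus, was at 1.74, 0.387, 2.70 and 1.002 RPM. Aqp1 (0.336) was nearer than any of these, and Folr1 and Slc4a5 stood at ranks 20 and 33 when each was placed among those genes. Kl and F5 stood at ranks 192 and 256. Enpp2, Sostdc1 and Clic6 were at ranks 2626, 3710 and 4497, and Prlr at 11874.

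The hippocampus list of 8 genes summed to 183 RPM in CxH and 146 in CxWT, beside 188 in MH and 122 in MWT. The 2 genes of red blood cells summed to 125 RPM in CxH and 254 in CxWT, beside 186 in MH and 77.1 in MWT, an order that Ttr did not share.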
